A study of Drosophila melanogaster with 20 samples.

Results

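The results describe 112 transcripts of the adult fly head (Drosophila melanogaster) that were higher when an RNA interference transgene against ATM was switched on in glia, and that were close to their controls in every other comparison of the study. ATM is the protein kinase that senses DNA breaks and starts the repair and checkpoint response, and its gene in the fly is tefu. The transcripts were chosen by their measured values. The difference between the mean RMA levels of Repo-ATMi and Repo-GAL4 flies had to be at least 1 on the log2 scale, which is 2-fold, and both Repo-ATMi arrays had to lie above both Repo-GAL4 arrays. The differences in the other 3 comparisons each had to lie between -0.5 and 0.5. Of 15473 transcripts measured, 279 met the part of the rule on the glial comparison, and 112 of these (0.724% of all) also met the bounds elsewhere. RMA takes background off the probe signals, puts the arrays on a shared distribution and combines the probes for each transcript into 1 log2 level.

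Total RNA of whole heads was hybridised to 20 single-colour arrays, 1 array per sample, over 8 genotypes that form 4 pairs. The glial pair was Repo-GAL4/UAS-RNAiATM (Repo-ATMi, 2 samples) against Repo-GAL4/+ (2 samples). One neuronal pair used the Elav-GAL4 driver on chromosome 2, with 4 samples of Elav-ATMi and 4 of Elav-GAL4, and the other the ElavC155-GAL4 driver on the X chromosome, with 2 samples of ElavC155-ATMi and 2 of ElavC155-GAL4. All driver flies were in the w1118 background, were kept at 25°C and were 4 to 6 days old, and the RNA interference transgene was absent from the controls, so presence of the transgene and RNA interference go together. The fourth pair set homozygotes of ATM8, a temperature-sensitive allele of tefu (2 samples), against ATM8/+ heterozygotes (2 samples). Both were in the pp e1 background, were cultured at 18°C until 0 to 3 days after eclosion and were then held at 25°C for 3 days, and the labels give no further age for them. The design asks what loss of ATM does to transcript levels in the head, and in which cell class the loss acts.

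The GAL4 system places a yeast transcription factor under a tissue's promoter, and the factor then switches on any transgene that carries its UAS binding site. The repo promoter is active in nearly all glia of the fly, and the elav promoter in neurons. Glia feed and insulate neurons, take up spent transmitter, form the blood-brain barrier and clear debris, and they are among the cells of the head that mount an innate immune response. In whole heads, more cells of a type and more RNA per cell cannot be told apart. The arrays give each transcript only its FlyBase number, and 0 of the 112 members could be tied to a gene through the table of genes that was at hand. What each member encodes is therefore not analysed here, nor are the levels of tefu and of marker genes of glia, neurons and other cells of the head, and no sequence is shown.

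The values of the arrays had 2 distributions. The medians of the 8 Repo and ATM8 arrays lay between 10.45 and 10.63, and those of the 12 Elav and ElavC155 arrays between 10.84 and 10.93. Each of the 4 pairs lies within 1 distribution. Levels of Repo flies can therefore be set most directly beside those of ATM8 and ATM8/+ flies, although these differ from them in genetic background and rearing temperature. Replicates of a genotype correlated at 0.976 to 0.995 across transcripts, which are not independent.

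The member with the largest difference was FBtr0081033, a transcript near the low end of the range everywhere except in Repo-ATMi flies. It was at 6.10 and 6.33 in the Repo-GAL4 samples and at 11.00 and 11.44 in the Repo-ATMi samples. The ATM8/+ samples were at 5.04 and 6.26 and the ATM8 samples at 5.91 and 5.77. With the neuronal drivers it was at 6.14, 5.91, 6.44 and 7.72 in Elav-GAL4, at 6.30, 6.39, 6.36 and 6.39 in Elav-ATMi, at 6.47 and 6.40 in ElavC155-GAL4 and at 6.17 and 5.93 in ElavC155-ATMi. Both Repo-ATMi samples lay above all 18 others, of which the next highest was Elav-GAL4 replicate 4. The glial difference was 5.0 ± 0.44 (limma estimate and SE, log2), a fold of 32.1 on the RMA scale. By its mean over all arrays it was among the dimmest 25% of transcripts, where the share of background is unmeasured, so the fold is not exact.

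FBtr0070202 had the next largest difference and lay near the middle of the range outside Repo-ATMi flies. It was at 10.10 and 9.42 in Repo-GAL4 and at 14.06 and 13.93 in Repo-ATMi. It was at 9.27 in both ATM8/+ samples and at 9.33 and 8.75 in ATM8. The 8 Elav samples lay between 10.29 and 11.12 and the 4 ElavC155 samples between 10.62 and 10.80, so that the Repo-ATMi samples again did not overlap with any other. The glial difference was 4.23 ± 0.28 (SE), a fold of 18.8. The Elav difference of this transcript was -0.05 ± 0.20 and the ATM8 difference -0.23 ± 0.28.

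**Figure D1:**
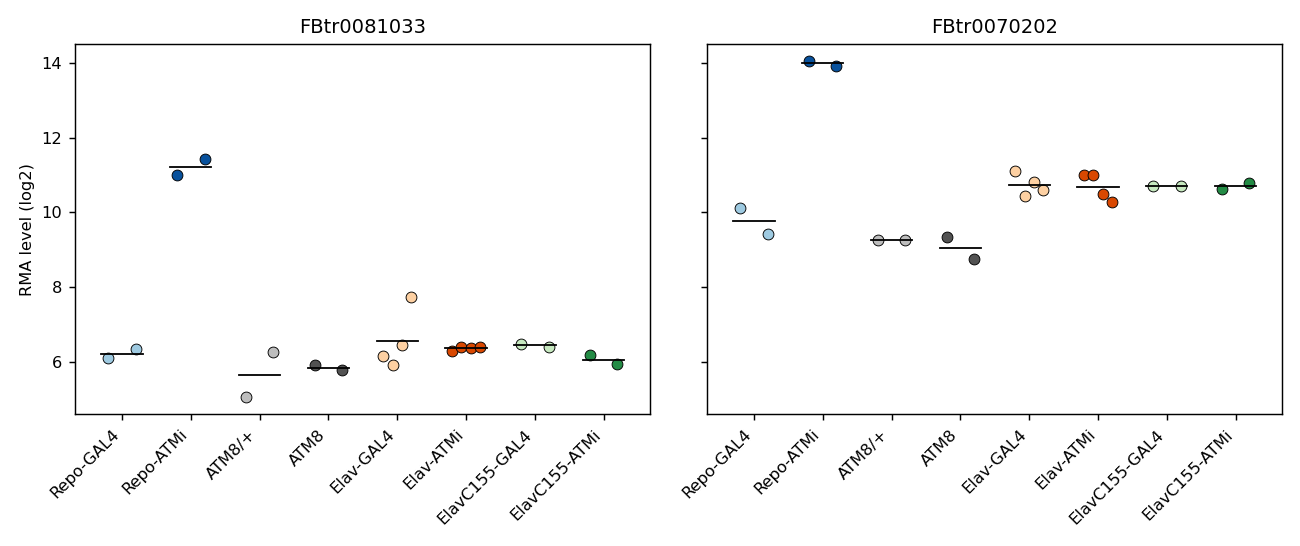
RMA level (log2) of FBtr0081033 and FBtr0070202 in each of the 20 samples, grouped by genotype; points are samples and bars are group means. The Repo-ATMi samples lie at 11.00 and 11.44 and at 14.06 and 13.93, above all other samples.

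Over the 112 members, the glial difference had a median of 1.24 and ran from 1.00 to 5.0 on the log2 scale. It was at least 2 for 19 members, from 1.5 to 2 for 17 and from 1 to 1.5 for 76, so that most members lay close to the minimum of the rule. The 3 members just inside that minimum were at 1.002, 1.004 and 1.008, and the 3 transcripts just outside it that met the other conditions were at 1.000, 1.000 and 0.995. The lower Repo-ATMi sample exceeded the higher Repo-GAL4 sample by a median of 1.01 and by 0.06 to 4.67, and by under 0.5 for 7 members. Elsewhere, 20 members had a difference beyond 0.45 in size in at least 1 of the other comparisons, near the bound of 0.5. The largest such difference was 0.498, and the smallest that kept a transcript out was 0.501.

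**Figure D2:**
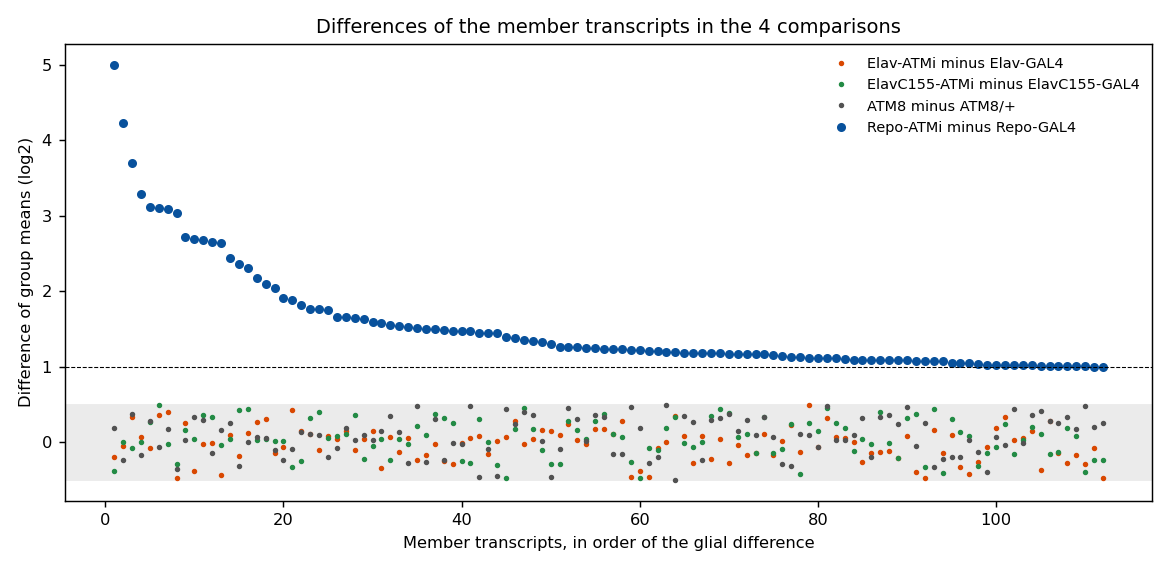
Difference of group means (log2) in the 4 comparisons for each of the 112 members, ordered by the glial difference; the dashed line is the minimum of 1 and the grey band the bounds of -0.5 and 0.5 that the rule set. The glial difference falls from 5.0 to 1.00 with a median of 1.24, and 76 members lie between 1 and 1.5.

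In the test of limma, a linear model that shares the spread between replicates across transcripts, with Benjamini-Hochberg adjustment over all transcripts, 93 of the 112 members passed at an adjusted p under 0.05 in the glial comparison, against 2.91% of all transcripts that rose in it. The rule used these values, so the count describes the members and supports nothing about them. With replicate 1 of Repo-GAL4 or of Repo-ATMi left out, fewer members passed, and fewer of all transcripts passed as well. The 19 members that did not pass were not the smallest rises: one of them, at 3.04, was FBtr0075620. In the comparisons that the rule held near 0, limma called 0 members in each of Elav-ATMi, ElavC155-ATMi and ATM8. Of all transcripts, 1.62%, 0.504% and 1.59% respectively were called, at the same adjusted p under 0.05. At an unadjusted p under 0.05, 13, 6 and 10 members passed. The share of all transcripts at that unadjusted threshold was not taken, so no excess can be read from these counts. With the replicate number as a block, 1 member passed in Elav-ATMi: FBtr0086522, at 0.36 ± 0.08 (SE, limma adjusted p = 0.041, against 0.18 without the block), a member named after its value was seen.

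Whether the glial effect was larger than another effect was read from the difference of the effects in the same fit. The rule used these differences too, so they are a description. The glial effect exceeded the Elav effect for 65 members, where 1.14% of all transcripts passed in that direction. Without Repo-ATMi replicate 1, fewer members and fewer of all transcripts passed. The glial effect exceeded the ATM8 effect for 48 members (1.16% of all transcripts). Fewer members passed without Repo-GAL4 replicate 1 or 2, Repo-ATMi replicate 1 or ATM8/+ replicate 1. With either Repo-GAL4 array left out, fewer of all transcripts passed as well. The glial effect exceeded the ElavC155 effect for 38 members (0.672% of all transcripts). That count was lower without Repo-GAL4 replicate 1 or 2, Repo-ATMi replicate 1, ElavC155-ATMi replicate 1 or 2, or ElavC155-GAL4 replicate 2. In each of these fits fewer of all transcripts passed as well. For 47, 64 and 74 members respectively, a difference from the Elav, ATM8 or ElavC155 effect was not shown, which does not show that the effects were alike. The comparison with either neuronal driver also sets arrays of one distribution against arrays of the other.

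The members were more often dim than transcripts at large, with many bright ones among them. Their median level was 7.55 in Repo-GAL4 flies, where the median of all transcripts was 10.47. Placed within each array, the median member stood at percentile 25.3 in Repo-GAL4, at 39.2 in Repo-ATMi, and between 27.8 and 29.4 in the other 6 genotypes. Of the 112, 47 (42.0%) were under a level of 7 in Repo-GAL4, against 21.2% of all transcripts. A further 24 lay from 7 to 9, and 41 (36.6%) at 9 or above, against 64.4% of all. The large rises were most frequent among the dim members: 14 of the 47 reached at least 2, with a median of 1.45 over the 47. Of the 41 bright members 4 did so, with a median of 1.24. The classes rest on the Repo-GAL4 level, which the rule used and which is subtracted in the rise. A low Repo-GAL4 level thus favours both a dim class and a large rise, so these values are a description. The files mark no transcript as detected or undetected, so how much of a dim level is background was not measured.

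The 20 arrays were also compared by the members' median. Each member's level was taken relative to its own mean over the 16 arrays of the other genotypes. The median of this value was 1.01 and 0.89 in the Repo-ATMi samples, and the same quantity over all transcripts was -0.20 and -0.22. It was -0.44 in both Repo-GAL4 samples, against -0.21 and -0.20 over all transcripts. In the other 16 arrays it ran from -0.22 to 0.11. So the median member was above its level in other genotypes in the knockdown and below it in the driver control. The choice of members favours both. Against the mean of the 4 ATM8 and ATM8/+ arrays, of the same distribution, the median member was at 1.08 in Repo-ATMi and -0.15 in Repo-GAL4. Over all transcripts these medians were -0.04 and -0.03. Of the 112, 97 were above that mean in Repo-ATMi and 46 in Repo-GAL4.

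**Figure D3:**
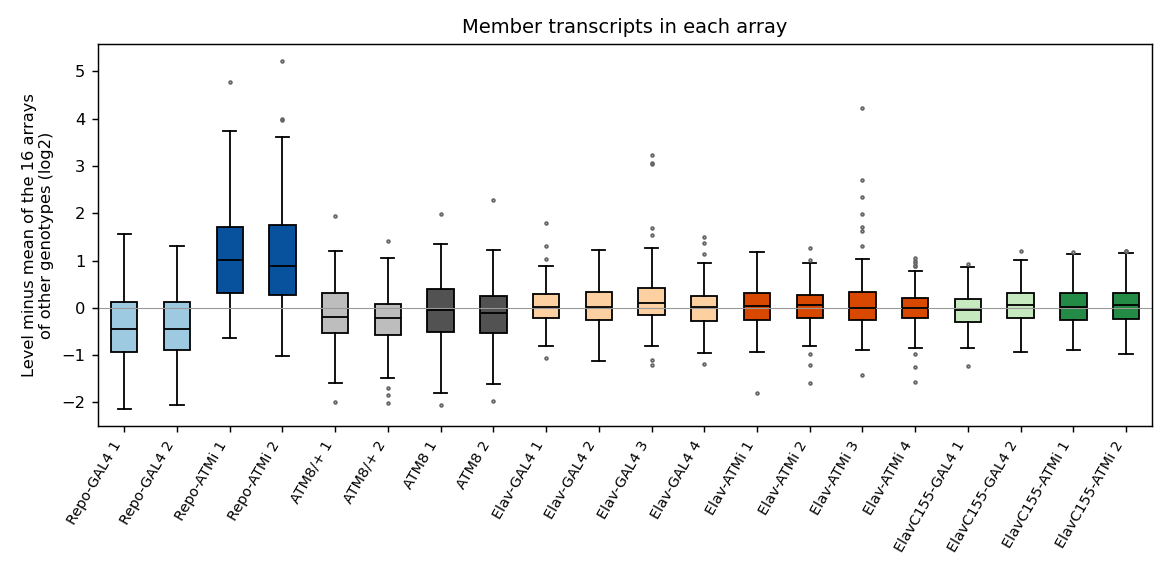
Level of the 112 members in each of the 20 arrays, each member relative to its mean over the 16 arrays of other genotypes (log2); boxes show the quartiles and median, whiskers reach 1.5 times the box and points lie beyond. The medians are 1.01 and 0.89 in Repo-ATMi, -0.44 in both Repo-GAL4 samples, and -0.22 to 0.11 elsewhere, and single members stand far above the rest in the replicate 3 arrays of both Elav genotypes.

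The 112 members fell into distinct positions when set against the 16 arrays of other genotypes. For 52 of them both Repo-ATMi arrays lay above all 16 while the Repo-GAL4 arrays were not below them, so that the knockdown was the sample that stood out. For 30 the reverse held: both Repo-GAL4 arrays lay below all 16 while the Repo-ATMi arrays were not above them, so that the driver control stood out and the knockdown had a level seen in other genotypes. For 28 members Repo-ATMi was not above the 16 and Repo-GAL4 was not below them, and for 2 members both conditions held. Counting those 2, 54 members had Repo-ATMi above, where 2.37% of all transcripts did, and 32 had Repo-GAL4 below, where 13.6% did. Because the rule used the Repo arrays, these counts are given with no test. The Repo arrays belong to the lower of the distributions, which bears on both counts: with each array centred on its median, they were 67 and 18, and on percentiles within the array 66 and 25.

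The values of these groups follow in part from how they were split, since the 4 ATM8 and ATM8/+ arrays are among the 16, and they are given as a description. The 52 members that were highest in Repo-ATMi had a median rise of 1.48, from 1.00 to 5.0, and a median Repo-GAL4 level of 6.97. Their Repo-ATMi level exceeded the mean of the 4 ATM8 and ATM8/+ arrays by a median of 1.83, and their Repo-GAL4 level by 0.27. The 30 members that were lowest in Repo-GAL4 had a median rise of 1.18, and none rose by more than 1.81. Their Repo-ATMi level differed from the ATM8 and ATM8/+ mean by a median of 0.06, while their Repo-GAL4 level lay at a median of -1.21 from it. By size of rise, 17 of the 19 members at 2 or more had both Repo-ATMi arrays above the 16 and 0 had Repo-GAL4 below them, whereas among the 76 members from 1 to 1.5 the counts were 28 and 27.

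Against the 4 ATM8 and ATM8/+ arrays alone, which share the distribution of the Repo arrays, both Repo-ATMi arrays lay above for 82 members, with 20.7% of all transcripts doing so. Both Repo-GAL4 arrays lay below for 49, with 27.5% of all transcripts doing so, and 20 members met both conditions. Genetic background, rearing temperature and driver cannot be told apart in this comparison. Of the 167 other transcripts with the same glial rise, which missed the bounds elsewhere, 24 (14.4%) had Repo-ATMi above the 16 arrays and 54 (32.3%) had Repo-GAL4 below them, against 48.2% and 28.6% of the members. These shares were not tested against each other, since the bounds that separate the lists act on the same 16 arrays. Of the 167, 70 were higher by at least 0.5 in Elav-ATMi, 86 in ElavC155-ATMi and 73 in ATM8, and 8, 18 and 10 were lower by as much.

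**Figure D4:**
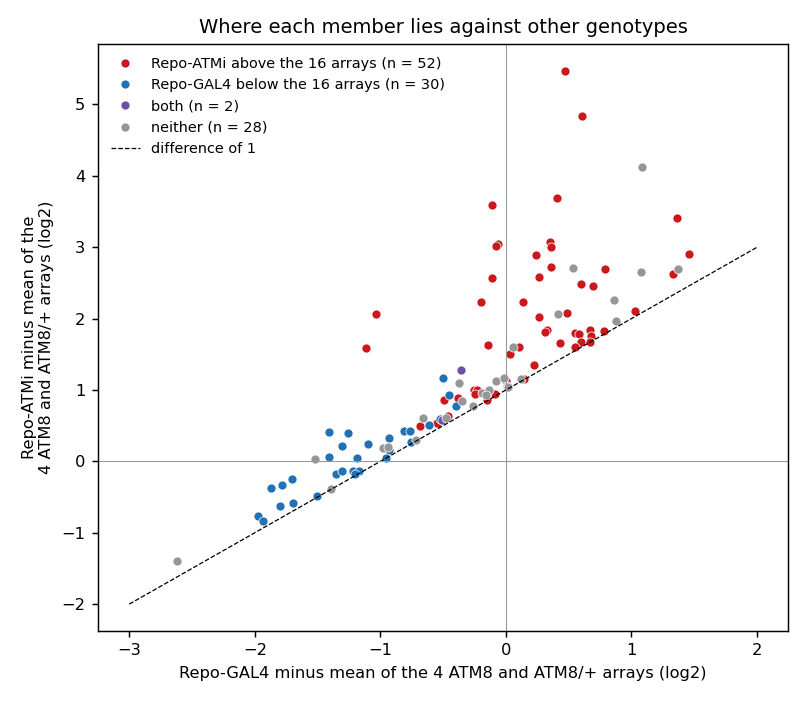
Mean Repo-GAL4 level (horizontal) and mean Repo-ATMi level (vertical) of each member, both relative to the mean of the 4 ATM8 and ATM8/+ arrays (log2); colours show which Repo samples lay outside the 16 arrays of other genotypes, and the dashed line is a glial difference of 1. The 52 members with only Repo-ATMi above the 16 spread upward to 5.47, and the 30 with only Repo-GAL4 below them lie along the dashed line to the left of 0.

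The level of the members also varied among the control genotypes, which carried no RNA interference transgene. Of these, ATM8/+ carried no driver and differed in background and rearing temperature, and the 4 controls lie in both distributions of arrays, so these differences cannot be told apart in a range over all 4. Over the 4 control genotypes, a member's mean level had a median range of 1.06, against 0.73 over all transcripts. For 44 of the 112 this range was larger than the glial rise itself. The range includes Repo-GAL4, whose low levels the rule favours, so both values are a description. Repo-GAL4 was the lowest of the 4 controls for 50 members (44.6%, against 36.4% of all transcripts), a share that the rule favours. The contrast between the neuronal driver controls was not used by the rule and lies within 1 distribution of arrays. In ElavC155-GAL4 against Elav-GAL4, 31 of the 112 members passed (27.7%, limma adjusted p under 0.05), 12 higher and 19 lower in ElavC155-GAL4, where 22.1% of all transcripts passed and 10.1% were higher. The median size of this difference was 0.36 for the members and 0.26 for all transcripts, and 12 members (10.7%) reached 2-fold, against 5.95% of all. The members' differences ran from -1.75 to 1.87, with a median of -0.08. With either ElavC155-GAL4 array left out, fewer members and fewer of all transcripts passed. The members' share was above that of all transcripts without replicate 2 of ElavC155-GAL4, and below it without replicate 1. Those fits leave 1 array in that genotype.

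**Figure D5:**
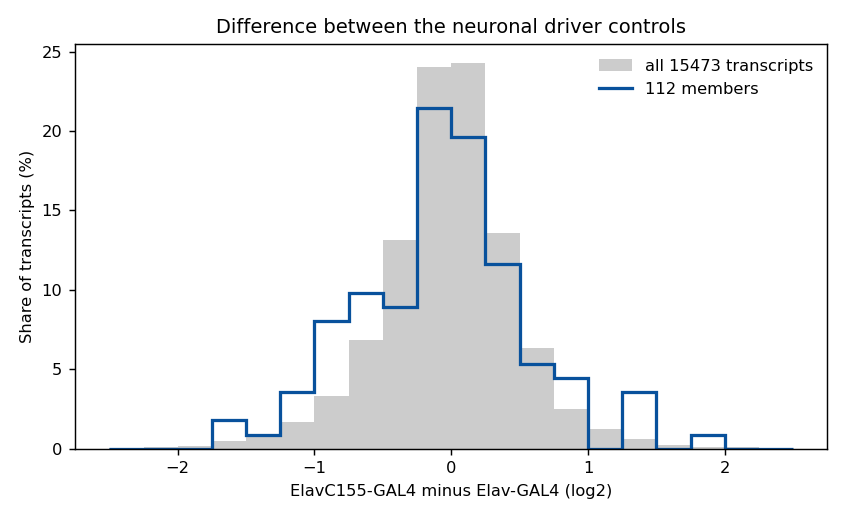
Share of transcripts (%) by their difference between the neuronal driver controls, ElavC155-GAL4 minus Elav-GAL4 (log2), in bins of 0.25, for all 15473 transcripts (grey, 41 of them beyond the axis) and the 112 members (line). The members spread from -1.75 to 1.87, with a median size of 0.36 against 0.26 for all transcripts.

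Within the bounds of the rule, the signs of the other differences were free to vary. In ATM8 homozygotes 72 of the 112 members (64.3%) were above 0, with a median of 0.10, where 50.0% of the 12747 transcripts within the same bounds were above 0, with a median of 0.00. In ElavC155-ATMi 69 (61.6%) were above 0, with a median of 0.05, against 50.4% of those transcripts. In Elav-ATMi 55 (49.1%) were above 0, with a median of 0.00, against 46.0%. All 3 differences were above 0 for 22 of the 112 members, and for 13.0% of the transcripts within the bounds. All 3 were below 0 for 8 members, where 14.4% of the transcripts within the bounds had none above 0. For the 30 members lowest in Repo-GAL4 the median ATM8 difference was 0.19, and for the 52 highest in Repo-ATMi it was 0.03. The rule used these contrasts, so the values are descriptive.

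Replicates of a genotype differed more for some members than their group means show. The Repo-ATMi samples differed by a median of 0.23 over the members, and by more than 1 for 7 of them, with a largest gap of 1.95. Over all transcripts the median gap was 0.19, and 1.51% differed by more than 1. The Repo-GAL4 samples differed by a median of 0.20 and by 0.85 at most, against a median of 0.14 over all transcripts. In the Elav genotypes the median SD over 4 replicates was 0.28 in controls and 0.23 in Elav-ATMi, against 0.21 and 0.16 over all transcripts.

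Some members stood high in single Elav samples of the same replicate number in both genotypes, while their Elav difference stayed within the bounds. The rule favours such members, since a high sample in 1 genotype alone moves its mean and can break the bound. The counts are therefore a description. In Elav-GAL4 replicate 3, 6 members (5.36%) were at least 1 above the mean of the other 3 samples, where 0.414% of all transcripts were. In Elav-ATMi replicate 3, 8 members (7.14%) were, where 1.11% of all transcripts were. In each of the other 6 Elav samples 0 to 3 members were, where 0.207% to 2.26% of all transcripts were. For 5 members this held in both replicate 3 samples, as it did for 0.136% of all transcripts. For replicates 1, 2 and 4 it held in both samples for 0 members, and for 0.103%, 0.155% and 0.0129% of all transcripts. These 5, named after their values were seen, were FBtr0075620, FBtr0074674, FBtr0086268, FBtr0088004 and FBtr0074581.

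FBtr0075620 varied widely over the Elav samples and was also high in Elav-GAL4 replicate 1. It was at 8.58, 7.28, 9.85 and 5.88 in Elav-GAL4 replicates 1 to 4 and at 7.65, 5.80, 11.01 and 5.21 in Elav-ATMi replicates 1 to 4. It was at 7.17 and 6.32 in Repo-GAL4 and at 10.04 and 9.53 in Repo-ATMi. The Elav samples thus spanned its whole glial rise, and 1 of them passed both Repo-ATMi samples. Its glial difference of 3.04 ± 1.37 (SE) did not pass (limma adjusted p = 0.27).

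FBtr0086268 was at 9.07 in Elav-GAL4 replicate 3 and 8.01 in Elav-ATMi replicate 3, and between 5.06 and 5.82 in the other 6 Elav samples. Its Repo-ATMi samples were at 7.10 and 7.87, both below these values, and its Repo-GAL4 samples at 6.00 and 5.90. FBtr0088004 was at 9.64 and 8.13 in the replicate 3 samples of Elav-GAL4 and Elav-ATMi, and at 6.10 and 7.81 in the Repo-ATMi samples, so that its glial rise rested largely on replicate 2. The same was true of FBtr0074581, at 6.11 and 8.05 in Repo-ATMi and 7.18 and 7.24 in the replicate 3 Elav samples. For FBtr0074674, the replicate 3 samples at 8.86 and 8.80 stood above its Repo-ATMi levels of 8.11 and 7.80. For all 5, both replicate 3 levels were above the lower Repo-ATMi sample, and 0 of the 5 passed in the glial comparison. The labels do not say what the samples of replicate 3 shared.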

How the data were processed

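Per the labels' protocols, Cy3-labelled head RNA was hybridised to 20 NimbleGen arrays. The authors deposited a log2 RMA level for each of 15473 transcripts, with RMA named by the authors without a version per the submitters' processing notes. The log2 scale was read from the values. Not given in the sources used here were the annotation release and whether all arrays were normalized together.

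Group means were taken per genotype from the labels, and members were found by the stated rule. Each transcript was fitted by limma 3.58.1 under R 4.3.3 (functions lmFit and eBayes, two-sided, 8 genotype means over 20 arrays, 12 residual degrees of freedom), and a transcript rose or fell at a Benjamini-Hochberg adjusted p under 0.05 over all transcripts. Differences of effects and the contrast between driver controls came from the same fit. The procedure was tested on simulated data. Errors of log2 differences are SEs. The labels call replicates biological without saying how they were made, so a p-value covers only the spread among the samples at hand, which may be technical. With 2 to 4 arrays a group, precision is limited by their number.

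Same-numbered samples of the Elav pair deviated together in all 4 pairs (correlations from 0.119 to 0.243). A fit with the replicate number as a block, shared over all 20 arrays, was therefore set beside that comparison. It assumes that same-numbered samples of different pairs shift together, which was not checked. Same-numbered samples also deviated together in the ElavC155 pair (0.509) and the ATM8 pair (0.262), and the block fit was run there too.

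Members and lists were chosen with earlier results of these data known. Members tied to 1 gene were to be named, and otherwise the 2 with the largest rise. The gene table, which follows Release 6 of the fly genome, matched 44 transcripts, 17 of them to exactly 1 gene. It matched 0 members and 0 genes of the 12 lists (immune, stress, DNA damage and cell type markers), which were not tested.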

Additional observations from a re-analysis of the deposited data

Results flagged for a closer look

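The median level of the 112 members in the Elav-ATMi samples was 8.43, 8.47, 8.69 and 8.46 in replicates 1 to 4. Replicate 3 stood apart, with a gap to its neighbour that was 0.831 of the range of the group. Of 6 such groups looked at, 1 stood out, and chance marks about 1 group in 20.

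For the transcripts with the largest rises, the glial effect differed from each other effect, which the choice of members favours. For FBtr0081033 it was larger by 5.20 than the Elav effect, by 5.39 than the ElavC155 effect and by 4.81 than the ATM8 effect (log2; limma adjusted p = 4.9e-05, 0.00018 and 0.00038). For FBtr0070202 these differences were 4.28, 4.23 and 4.46 (limma adjusted p = 4.2e-06, 1.9e-05 and 8.6e-06).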

How the results depend on the processing

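The rule found 69 members with the dimmest 25% of transcripts left out, 36 with a rise of at least 1.5, 206 with a rise of at least 0.8 and 46 with the other differences within 0.3. Quantile normalization gave 128, of which 102 were among the 112. Leaving out 1 array gave 99 to 160, and 86 to 109 of the 112 were found again. Leaving out 1 array, the members passing numbered 59 to 82 in the glial comparison, 0 to 2 in Elav, 0 in ElavC155 and ATM8, and 15 to 29 between the driver controls. The counts for a larger glial effect were then 42 to 67 against Elav, 16 to 30 against ElavC155 and 27 to 37 against ATM8. With the dimmest 25% left out, which leaves 69 members to test, 43 passed against Elav and 25 against ElavC155, and array weights gave 61 against ElavC155, for which the cause was not tested. With each array centred on its median, Repo-GAL4 lay below the 16 arrays for 18 members. With 1 Repo array left out and the members kept, 54 to 63 members had Repo-ATMi above the 16 arrays and 32 to 39 had Repo-GAL4 below. Against the ATM8 and ATM8/+ arrays the counts were 82 to 90 and 49 to 56. Leaving out a Repo array can only keep or raise such counts, so these ranges are no check of them.

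The replicate block gave 1 member in Elav-ATMi and 102 in the glial comparison, and changed no other count by over 1.5 times. The Repo samples of the same number correlated at -0.140 in their deviations, and with crossed numbers the count was 100. The glial rises of FBtr0081033 (4.79 to 5.36) and FBtr0070202 (3.89 to 4.57) passed under every setting run. FBtr0081033 was among the dimmest 25% and has no value there. Fits that leave 1 array in a genotype assume that it varies like the other genotypes. At the lowest counts of members in such fits, fewer of all transcripts passed as well.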

Other observations

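FBtr0070202 had the same deposited level to the last digit in both ATM8/+ arrays, and was 1 of 4 such transcripts among all 15473. Under the mirror of the rule, 53 transcripts fell by at least 1 with the glial driver and stayed within 0.5 elsewhere.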
